A study of Mus musculus with 6 samples.

Results

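The early genes Egr1, Egr2, Egr3, Ier2, Ier3, Klf2, Klf4, Klf6, Nr4a1 and Myc were taken by symbol from the deposited count table, where all 10 were found among 55494 rows. The libraries came from primary muscle stem cells of wildtype mice, the satellite cells that rebuild adult skeletal muscle. The cells were kept in culture for 2 days with 11,12-EET (3 libraries) or without it (3 control libraries). 11,12-EET, an epoxyeicosatrienoic acid, is a signalling lipid formed when cytochrome P450 epoxygenases act on arachidonic acid. The sources used here do not state its dose, what the control cells received or the age and sex of the mice. Nor is it stated whether the libraries of each group began as separate mice or cultures, so p-values cover only library-to-library spread, part or all of which may be technical.

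Early genes are switched on within minutes of a growth factor, stress or adhesion signal, without new protein synthesis, through the ERK kinases, the serum response factor SRF with its ELK partners, and CREB. Their mRNAs decay quickly, so a level read after days in culture is a standing level and not the first pulse. In skeletal muscle they are known as genes that satellite cells raise when they leave quiescence or are taken out of the tissue. EGR, KLF and NR4A proteins are DNA-binding transcription factors, MYC drives growth and ribosome production together with MAX, and the IER genes encode small early response proteins.

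Library totals ran from 32154461 to 36386443 counts with EET and from 30371291 to 37243882 counts in controls, and 16097 genes passed the filter on low counts. In each library the fold changes followed mRNA length. The deviation from the mean of all 6 libraries changed by −0.27 to −0.11 log2 units per doubling of length in the EET libraries and by 0.12 to 0.24 in the controls, over 13811 protein-coding genes. The fold changes and ratios of the early genes are therefore given as counted and again with that trend on mRNA length and GC content taken out, library by library. Sums of marker genes are given as counted only. The second kind of value compares a gene with mRNAs that resemble it in length and GC content. Length is that of the longest annotated protein-coding transcript, which need not be the main one in these cells. Satellite cell and myoblast markers (Pax7, Myf5, Myod1 and 5 others) summed to 2670 to 2760 CPM (counts scaled to a common library size with TMM factors) with EET and to 2570 to 2730 CPM in controls, led by Myod1. Inside this sum genes moved both ways (calls at adjusted p under 0.05, test described below). Myod1 and Myf5 were called higher, and Megf10 and Pax7 lower (Pax7 at 83.5 CPM with EET and 114 CPM in controls). With the trend removed 0 of the 8 were called. Markers of other cells were also present, with 0 of the 8 genes of any list under 1 CPM. Endothelial markers summed to 161 to 179 CPM with EET and 282 to 295 CPM in controls. Schwann and neural crest markers summed to 348 to 389 CPM with EET and 470 to 480 CPM in controls. For pericyte and smooth muscle markers the sums were 340 to 364 CPM with EET and 384 to 402 CPM in controls, and for fibro-adipogenic markers 340 to 354 CPM with EET and 372 to 376 CPM in controls. Of the 8 pericyte and smooth muscle markers 5 were called lower and 2 higher, or 3 and 0 with the trend removed. Of the 8 fibro-adipogenic markers 2 were called lower and 0 higher, with a median log2 fold change of 0.14. With the trend removed 3 were lower and 0 higher, at a median of −0.04. The sums of macrophage and leukocyte markers, at 204 to 386 CPM with EET and 315 to 344 CPM in controls, overlapped between the groups. They were led by Lyz2, which varied widely with EET (185 ± 84.8 CPM, mean ± SD). Of these 8 markers 2 were called lower and 0 higher, or 3 and 1 with the trend removed. Over all genes tested 23.3% were called lower and 24.6% higher, or 14.4% and 17.2% with the trend removed.

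The 10 genes are compact. Of them 7 had fewer than 4 exons in the longest protein-coding transcript, against 14% of the 13811 protein-coding genes tested, and the median was 2.5 exons against 9. Median mRNA length was 2759 bp, against 3202 bp. The shortest mRNAs were those of Ier3 (1131 bp), Ier2 (1522 bp) and Klf2 (1847 bp), and the longest those of Egr1 (4484 bp), Klf6 (4225 bp) and Egr3 (3940 bp). The pentamer ATTTA, the core of the AU-rich elements that speed mRNA decay, was in the 3′ UTR of 9 of 10 (all but Ier2), against 69.6% of genes tested. The longer TATTTAT was in 3 of 10 (Ier3, Klf2 and Klf6), against 30.5%, so the longer form was no more frequent here than in other mRNAs. No exon of another annotated gene overlapped any of the 10 on either strand.

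RefSeq promoter windows on GRCm38.p6 (250 bases before to 50 after a start site) were taken for Egr2, Ier3, Klf2, Klf4, Klf6 and Nr4a1. They were searched on both strands for the CArG box that SRF binds, for TGACG (the short form of the cyclic AMP response element that CREB binds), the full element spelled TGACGTCA, the TATA box as TATAA, the GC box as GGGCGG, the E-box that MYC and MAX bind as CACGTG, the EGR site as GCGNGGGCG, and the NF-kB site. Each TGACGTCA would also count as TGACG, and EGR sites can overlap GC boxes. Egr1 was left out of this search, so the counts of windows do not cover its promoter. No window was listed for Egr3, Ier2 and Myc. Below are 4 windows whose genes differ in their response: Egr2 and Klf4, which were lower with EET in both analyses, Ier3, whose direction turned with the length and GC trend removed, and Klf2, which was higher as counted. Capitals mark CArG boxes, TGACG and TATAA or their reverse complements. The windows are at chr10:67537619-67537918 (plus strand, Egr2), chr4:55532426-55532725 (minus strand, Klf4), chr17:35821463-35821762 (plus strand, Ier3) and chr8:72318812-72319111 (plus strand, Klf2).
Egr2: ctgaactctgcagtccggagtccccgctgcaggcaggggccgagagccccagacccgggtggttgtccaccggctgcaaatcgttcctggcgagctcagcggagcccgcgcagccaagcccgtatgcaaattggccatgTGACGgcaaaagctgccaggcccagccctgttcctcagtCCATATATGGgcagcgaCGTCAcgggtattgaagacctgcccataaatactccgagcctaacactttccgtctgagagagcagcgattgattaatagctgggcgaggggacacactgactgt
Klf4: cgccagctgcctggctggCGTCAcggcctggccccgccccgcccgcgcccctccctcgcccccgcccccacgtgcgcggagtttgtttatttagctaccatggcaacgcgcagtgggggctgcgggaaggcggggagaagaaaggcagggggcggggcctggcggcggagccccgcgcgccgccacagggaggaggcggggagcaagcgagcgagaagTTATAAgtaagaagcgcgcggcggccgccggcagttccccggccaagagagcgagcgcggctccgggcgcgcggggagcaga
Ier3: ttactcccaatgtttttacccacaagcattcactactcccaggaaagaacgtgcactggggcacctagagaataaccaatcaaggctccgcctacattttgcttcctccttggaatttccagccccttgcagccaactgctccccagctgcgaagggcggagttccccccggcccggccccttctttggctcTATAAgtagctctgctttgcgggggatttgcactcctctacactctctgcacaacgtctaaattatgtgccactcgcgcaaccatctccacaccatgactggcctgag
Klf2: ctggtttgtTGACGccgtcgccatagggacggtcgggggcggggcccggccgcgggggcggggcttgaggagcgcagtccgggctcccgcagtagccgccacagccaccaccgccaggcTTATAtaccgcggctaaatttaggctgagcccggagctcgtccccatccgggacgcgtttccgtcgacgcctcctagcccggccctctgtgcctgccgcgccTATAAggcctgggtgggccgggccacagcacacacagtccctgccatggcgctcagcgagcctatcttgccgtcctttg

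A CArG box was found in 1 of the 6 windows, that of Egr2, starting 72 bases before the start site, and in 1.63% of all 32851 RefSeq windows. TGACG was in 4 of 6 (Egr2, Klf2, Klf4 and Nr4a1, which held 4 copies), against 20.8% of all windows. TATAA was in 3 of 6 (Ier3, Klf2 and Klf4), against 24.9%, and GGGCGG in 5 of 6, all but Egr2, against 35.7%. The EGR site was in 3 of 6 (Klf2, Klf4 and Nr4a1), against 5.55%, the E-box in 2 of 6 (Klf4 and Klf6), against 7.15%, and the NF-kB site in 2 of 6 (Ier3 and Nr4a1), against 4.51%. TGACGTCA was in 0 of 6, against 1.79%. The windows of Klf2 and Klf4, which differed in their response, shared matches to TGACG, the TATA box, the GC box and the EGR site. The start site of the window listed for Nr4a1 lies inside the annotated gene, 12577 bases from the start of its longest protein-coding transcript. For Egr2, 5 windows were listed and 1 was searched, the one whose start site is that of its longest protein-coding transcript. That window also lies inside the annotated gene, and the other windows of Egr2 were not searched for these counts.

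All 10 genes were measured in every library, from 224 counts (Egr2, EET replicate 1) to 11796 counts (Myc, control replicate 1). Per kilobase of mRNA, Myc had the highest level, with 131 ± 5.16 CPM per kb with EET and 128 ± 4.02 in controls (mean ± SD, n = 3 each). It was followed by Ier3 with 112 ± 2.03 CPM per kb with EET and 94.8 ± 4.94 in controls. In EET libraries the order then ran Ier2 (53.7 ± 5.14), Klf6 (36.5 ± 2.92), Egr1 (29.9 ± 1.3), Klf2 (19 ± 2.26), Nr4a1 (8.18 ± 1.21), Klf4 (3.89 ± 0.507), Egr3 (3.21 ± 0.0916) and Egr2 (2.64 ± 0.482), and no neighbours in it overlapped. In controls Klf6 (43.7 ± 1.48 CPM per kb) stood above Ier2 (37.1 ± 3.86). Ier2 overlapped Egr1 (35.8 ± 0.824) there, and Egr3 (4.21 ± 0.429) overlapped Egr2 (3.9 ± 0.411). Standing levels of Egr1 were thus about an order of magnitude above those of its relatives Egr2 and Egr3 in both groups. Together the 10 genes held 0.0856 to 0.0885% of all counts with EET and 0.0913 to 0.0934% in controls.

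With EET 3 of the 10 genes rose (Ier2, Ier3 and Klf2) and 5 fell (Egr1, Egr2, Egr3, Klf4 and Klf6), while Nr4a1 and Myc did not pass (adjusted p under 0.05 in edgeR's quasi-likelihood test, with the Benjamini-Hochberg adjustment taken over all genes tested). The 8 called genes of 10 compare with 47.9% of all 16097 genes tested, of which 24.6% rose and 23.3% fell, so the 3 that rose were a share near that of other genes. The same 3 genes lay wholly above and the same 5 wholly below the controls, where 29.6% and 28% of all genes did. The median log2 fold change of the 10 was −0.19, against 0.005 for all genes tested. With the length and GC trend removed 0 of 10 were called higher and 4 lower (Egr2, Klf4, Ier3 and Myc), against 17.2% and 14.4% of all genes tested (31.7% in either direction), and their median was −0.16 against −0.0052. The same 4 lay wholly below the controls and 0 wholly above, where 22% and 23% of all genes did. Where the trend was removed but the TMM scale kept, 0 were called higher and 3 lower (Egr2, Klf4 and Ier3), against 23.5% and 9.62% of all genes (33.1% in either direction). The 2 calls that held in both analyses with the same direction were those of Egr2 and Klf4, which were also called lower in each of 16 alternative analyses. Their annotated mRNA lengths are 2965 and 3029 bp, and the trend fitted for them was near 0 in every library. It ran from −0.013 to 0.033 log2 units for Egr2 and from −0.025 to 0.043 for Klf4. Removing the trend could therefore change these 2 values little, and all alternatives used the same 6 libraries.

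**Figure D1:**
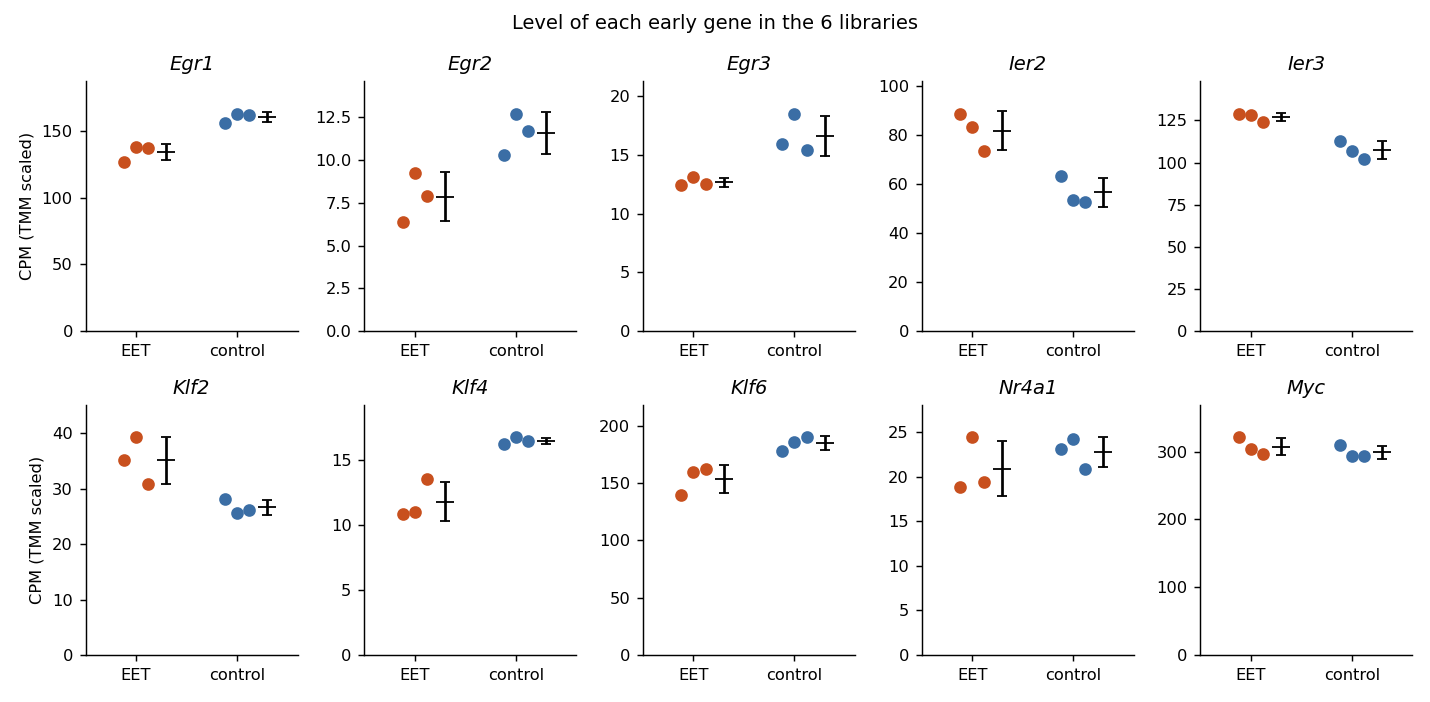
CPM of each of the 10 early genes in the 3 EET libraries (orange, left) and the 3 control libraries (blue, right), in the order replicate 1 to 3, with the mean and SD as a black bar; each vertical axis starts at 0. The EET libraries lie wholly below the controls for Egr1, Egr2, Egr3, Klf4 and Klf6, wholly above for Ier2, Ier3 and Klf2, and overlap them for Nr4a1 and Myc.

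The EGR factors are zinc finger proteins that bind GC-rich sites and carry the early response on to later genes. Egr2 (chromosome 10, 67535475 to 67542188, plus strand, GRCm38), also called Krox20 and known for the myelin program of Schwann cells, had 6.39, 9.25 and 7.89 CPM in EET replicates 1 to 3, against 10.3, 12.7 and 11.7 CPM in control replicates 1 to 3. The highest EET library stayed under the lowest control. The log2 fold change of Egr2 was −0.56 ± 0.15 (estimate ± SE, adjusted p = 0.00562), a fold of 0.677, and its value with the trend removed was −0.56 ± 0.14 (adjusted p = 0.00456). This was the largest fall of the 10 as counted. In the same libraries 6 of 8 Schwann and neural crest markers fell and 1 rose, where 23.3% and 24.6% of all genes did. With the trend removed, where 14.4% of all genes were lower and 17.2% higher, 5 of these markers were lower and 0 higher. Among them Sox10, their lineage factor, was at 53.6 ± 3.66 CPM with EET and 67.4 ± 2.24 CPM in controls. Their part in the result was not tested, and in bulk RNA fewer cells of a type cannot be told apart from less RNA per cell.

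Egr3 (chromosome 14, 70077203 to 70082614, plus strand), which is itself induced by EGR1 in several cell types, had 12.4, 13.1 and 12.5 CPM with EET, against 15.9, 18.5 and 15.4 CPM in controls. The groups did not overlap, and Egr3 fell by 0.39 (SE 0.11, adjusted p = 0.00765). That call was lost without control replicate 2, its highest library (log2 fold change −0.31, adjusted p = 0.063), and with the trend removed (−0.20 ± 0.10, adjusted p = 0.147). Egr1 (chromosome 18, 34859823 to 34864984, plus strand), the family member most often read as a sign of recent growth factor signalling, had 127, 138 and 137 CPM with EET, against 156, 163 and 162 CPM in controls. Egr1 fell by 0.26 (SE 0.07, adjusted p = 0.00382), to a fold of 0.834. Its mRNA is the longest of the 10, and with the trend removed the libraries overlapped (140, 154 and 144 CPM with EET, against 144, 149 and 146 CPM in controls) and the value was −0.0031 ± 0.05 (adjusted p = 0.971). With the trend centred on the median gene, Egr1 thus differed from other mRNAs of its annotated length and GC content by less than its standard error. That length, 4484 bp, is of the longest annotated transcript, with 1599 bp of coding sequence and 1216 bp of 3′ UTR. If a shorter transcript were the main one, the value with the trend removed could differ. Where the TMM scale was kept its value was 0.07 (adjusted p = 0.298).

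Of the 6 tested genes among EGR partners and relatives 1 rose and 3 fell, against 24.6% and 23.3% of all genes, with a median of −0.48. With the trend taken out 0 were higher and 2 lower, against 17.2% and 14.4%, at a median of −0.11. Those 2, named after their values were seen, were close to the threshold. They were Sp3 (−0.15, adjusted p = 0.0471) and Egr4 (−1.49, adjusted p = 0.0496), and Egr4 was at only 0.215 CPM with EET and 0.455 CPM in controls. Wt1 did not pass the filter on low counts. Sp1, a factor that shares GC-rich sites with the EGR proteins, was at 99.3 ± 9.34 CPM with EET and 156 ± 21 CPM in controls and fell by 0.65 (SE 0.10, adjusted p = 8.27e-05). Its relative Sp4 was at 5.34 ± 0.27 CPM with EET and 8.44 ± 1.52 CPM in controls (log2 fold change −0.66 ± 0.16, adjusted p = 0.00321). Both have long mRNAs (7754 and 5694 bp) and neither was called with the trend removed (−0.08 and −0.29). Nab2, a corepressor that binds EGR1 and is named here after its values were seen as the single gene that rose, was at 41.3 ± 1.37 CPM with EET and 34.8 ± 2.19 CPM in controls, a log2 fold change of 0.25 ± 0.08 (adjusted p = 0.023). Its value was 0.10 once the trend was taken out (adjusted p = 0.278).

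The KLF factors split. Klf2 and Klf4 are close relatives that share targets in endothelial and other cells, where blood flow raises both, and Klf4 is also one of the reprogramming factors. Klf4 (chromosome 4, 55527143 to 55532466, minus strand) had 10.8, 11 and 13.5 CPM with EET, against 16.2, 16.7 and 16.4 CPM in controls. All 3 EET libraries lay below the narrow control range. Klf4 fell by 0.48 (SE 0.11, adjusted p = 0.00262), to a fold of 0.715, and the value with the trend removed was −0.47 ± 0.10 (adjusted p = 0.00159). Klf2 (chromosome 8, 72319033 to 72321656, plus strand) had 35.2, 39.3 and 30.9 CPM with EET, against 28.1, 25.6 and 26.2 CPM in controls. Klf2 rose by 0.40 (SE 0.10, adjusted p = 0.00346), a fold of 1.32, and kept that call in all 13 alternatives that leave the length trend in place. With the trend removed its libraries overlapped, at 28.8, 33.8 and 28.5 CPM with EET against 30.2, 30.7 and 30.6 CPM in controls (log2 fold change −0.0037 ± 0.08, adjusted p = 0.979).

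Klf6 (chromosome 13, 5861482 to 5870394, plus strand), a KLF induced by injury, had 140, 160 and 162 CPM with EET, against 178, 186 and 190 CPM in controls. Klf6 fell by 0.26 (SE 0.07, adjusted p = 0.00794), and the value with the trend removed was −0.05 ± 0.05 (adjusted p = 0.4). Of the 8 endothelial markers 6 fell and 0 rose, both as counted and with the trend removed, where 23.3% and 14.4% of all genes were called lower. The 6 were not the same genes in both, as 2 markers named after their values were seen differed. Vwf was called only as counted (−0.70, and −0.10 with the trend removed). Cldn5 was called only with the trend removed (−0.48, and 0.10 as counted). Cdh5, which encodes the junction protein VE-cadherin, was at 41.6 ± 4.35 CPM with EET and 81.5 ± 5.65 CPM in controls. The part of endothelial cells in the KLF values was not tested. Among 11 tested genes of the other KLF family 5 fell and 0 rose, against 23.3% and 24.6% of all genes, with a median of −0.43. Without the trend 2 were lower and 1 higher, against 14.4% and 17.2% of all genes, at a median of −0.09. Klf1, Klf14 and Klf17 did not pass the filter. Klf3, a repressor of the family, was at 32.2 ± 3.08 CPM with EET and 49.4 ± 2.92 CPM in controls. It fell by 0.62 (SE 0.09, adjusted p = 6.13e-05) and was called with the trend removed (−0.25, adjusted p = 0.00878), but not where the TMM scale was kept (−0.17, adjusted p = 0.0613). Its exons overlap those of the antisense gene Gm20033, and the sources used here do not say whether counting used the strand. Klf13 was at 95.1 ± 1.09 CPM with EET and 128 ± 9.82 CPM in controls, a log2 fold change of −0.43 ± 0.07 (adjusted p = 0.000156) that became 0.05 once the trend was taken out (adjusted p = 0.484).

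**Figure D2:**
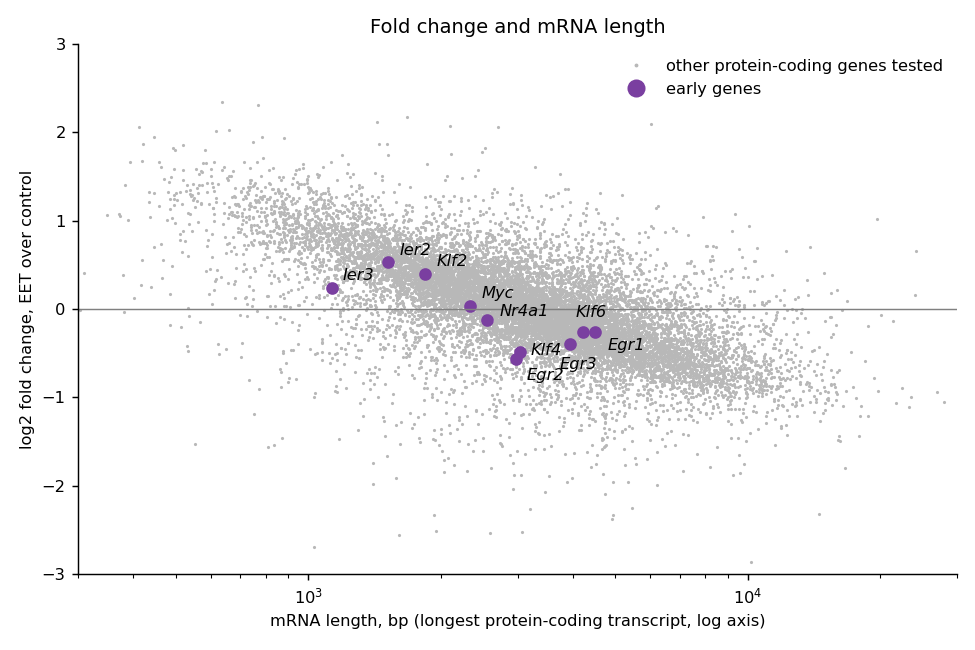
Log2 fold change of EET over control (vertical axis) against mRNA length in bp on a log axis, for protein-coding genes tested (grey, 7 of 13811 lie outside the axes) and the 10 early genes (purple, named). Ier2, Klf2, Egr1 and Klf6 sit inside the dense band that slopes down with length, and Ier3, Egr2 and Klf4 lie below its middle.

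Ier2 and Ier3 encode short-lived proteins from short mRNAs. Ier2 (chromosome 8, 84661331 to 84662852, minus strand), a single-exon gene whose product acts in the nucleus, had 88.6, 83.3 and 73.2 CPM with EET, against 63.3, 53.6 and 52.6 CPM in controls. No EET library came down to the control range. Ier2 rose by 0.53 (SE 0.09, adjusted p = 0.000225), a fold of 1.45 and the largest rise of the 10. With the trend removed the groups overlapped, at 68.8, 67.8 and 65.8 CPM with EET against 70.5, 67.1 and 64.7 CPM in controls, and the value was −0.00042 ± 0.06 (adjusted p = 0.997). Ier3 (chromosome 17, 35821684 to 35822923, plus strand), also known as IEX-1, a regulator of cell survival, had 129, 128 and 124 CPM with EET, against 113, 107 and 102 CPM in controls. Ier3 rose by 0.24 (SE 0.07, adjusted p = 0.00757), a call lost without control replicate 3 (0.20, adjusted p = 0.0598). With the trend removed Ier3 was called lower, at −0.47 ± 0.06 (adjusted p = 2.65e-06), with 92.9, 96.4 and 108 CPM with EET against 135, 140 and 137 CPM in controls. The direction for Ier3 thus depended on whether the trend was removed.

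Among the 4 tested relatives in the NR4A and IER families 2 rose and 2 fell, where 24.6% and 23.3% of all genes did, so all are named. Ier5l was at 42.9 ± 2.66 CPM with EET and 30.6 ± 2.56 CPM in controls, and rose by 0.49 (SE 0.09, adjusted p = 0.000382), or 0.31 with the trend removed (adjusted p = 0.00136). Ier5, named after its values were seen, was at 68.7 ± 4.63 CPM with EET and 55.6 ± 4.02 CPM in controls (0.31 ± 0.08, adjusted p = 0.00607; 0.38 with the trend removed). Both were called higher in both analyses. Nr4a1 (chromosome 15, 101254269 to 101274795, plus strand), also called Nur77, is an orphan nuclear receptor of the early response. It had 18.8, 24.4 and 19.4 CPM with EET, against 23.1, 24.2 and 20.9 CPM in controls. EET replicate 2 lay above all 3 controls, so the groups overlapped, and Nr4a1 did not pass (log2 fold change −0.12 ± 0.11, adjusted p = 0.398; −0.24 ± 0.10 with the trend removed, adjusted p = 0.0767). Its relatives Nr4a2 and Nr4a3 fell. Nr4a2, named after its values were seen, was at 23.4 ± 3.38 CPM with EET and 31.8 ± 1.83 CPM in controls (−0.44 ± 0.11, adjusted p = 0.00335; −0.32 with the trend removed). Nr4a3 was at 3.66 ± 0.12 CPM with EET and 6.13 ± 0.973 CPM in controls (−0.75 ± 0.17, adjusted p = 0.0022), and was not called with the trend removed (−0.30, adjusted p = 0.219). Whether Nr4a1 differed from its relatives was not tested.

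Myc (chromosome 15, 61985391 to 61990374, plus strand) had the highest level per kilobase and, as counted, the log2 fold change nearest 0 of the 10. It had 321, 304 and 297 CPM with EET, against 310, 294 and 293 CPM in controls, and the groups overlapped. The log2 fold change was 0.04 ± 0.06 (adjusted p = 0.658), and over the 13 alternatives that leave the trend in place it ran from −0.03 to 0.06. With the trend removed Myc was called lower at −0.13 ± 0.04 (adjusted p = 0.0251), at 293, 289 and 284 CPM with EET against 315, 315 and 316 CPM in controls. That call was lost where the TMM scale was kept during removal of the trend (−0.05, adjusted p = 0.355), which places the median of all genes at 0.07.

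The MYC network covers the other MYC genes, MAX and its partners, and cofactors. Of 18 tested members 6 rose and 5 fell, against 24.6% and 23.3% of all genes, with a median of −0.02. Without the trend 5 were higher and 3 lower, against 17.2% and 14.4% of all genes, at a median of −0.01. Mga, a MAX partner that represses, was at 74 ± 7 CPM with EET and 136 ± 21.1 CPM in controls and fell by 0.88 (SE 0.11, adjusted p = 1.56e-05). Trrap, the scaffold that MYC uses to recruit histone acetyltransferases, was at 110 ± 6.17 CPM with EET and 189 ± 18.3 CPM in controls and fell by 0.79 (SE 0.08, adjusted p = 3.26e-06). Their mRNAs are 13931 and 12479 bp long, and both were called with the trend removed, at −0.24 for Mga and −0.14 for Trrap (adjusted p = 0.00191 and 0.0283). The call of Trrap was lost where the TMM scale was kept (−0.07, adjusted p = 0.312).

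In a list of 36 genes that MYC is known to drive in ribosome production and growth, 22 rose and 6 fell, against 24.6% and 23.3% of all genes, with a median of 0.36. Without the trend 16 were higher and 2 lower, against 17.2% and 14.4% of all genes, and the median was 0.08. These counts depend on the length given to each gene, the longest annotated transcript. Ncl (8202 bp) and Nop58 (9507 bp), named after their values were seen, were not called as counted (0.04 each). They were called higher without the trend (0.60 and 0.62). Wdr12 (10012 bp), also named after its values were seen, went from 0.36 to 0.94. Nhp2, a protein of box H/ACA particles, was at 237 ± 23.9 CPM with EET and 109 ± 10 CPM in controls (log2 fold change 1.11 ± 0.09, adjusted p = 8.47e-07; 0.34 with the trend removed). Hspe1, the mitochondrial cochaperonin, was at 218 ± 38 CPM with EET and 94.2 ± 1.93 CPM in controls (1.21 ± 0.10, adjusted p = 1.62e-06; 0.24 with the trend removed). Exons of an antisense gene overlap both (Rmnd5b and Hspd1), and Hspe1 has processed pseudogenes that could share its reads, so their levels are uncertain.

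**Figure D3:**
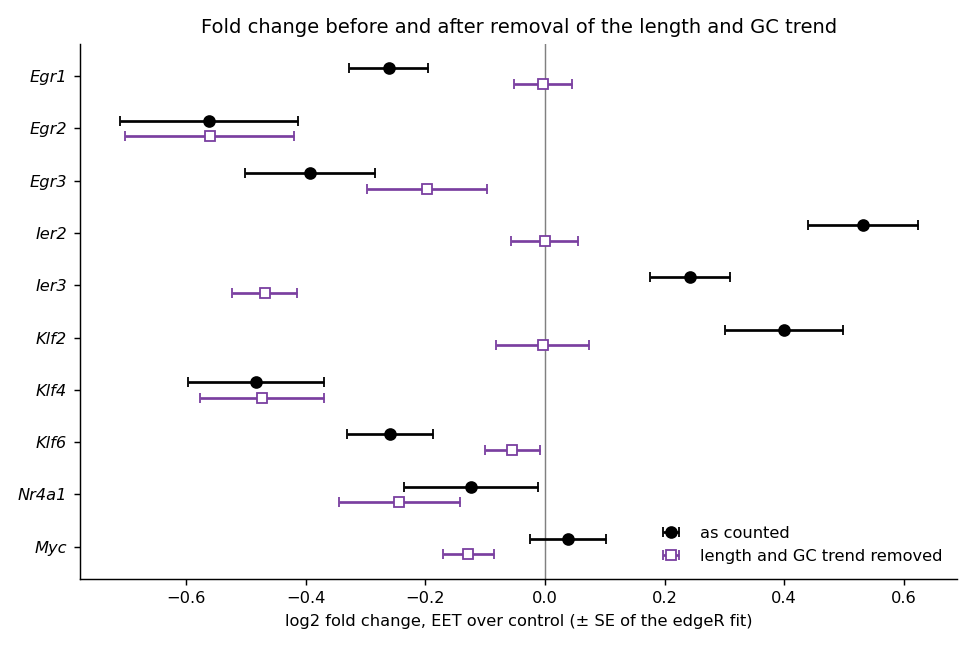
Log2 fold change of EET over control with its standard error for each of the 10 early genes, as counted (black circles) and with the mRNA length and GC trend removed (purple squares). Both values lie near −0.5 for Egr2 and Klf4, the values of Ier2, Klf2, Egr1 and Klf6 move towards 0, and that of Ier3 moves from 0.24 to −0.47.

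Other early genes were mixed as well. Of 46 other immediate early genes tested 17 rose, 13 fell and 16 did not pass, with a median of 0.10. Over all genes tested 24.6% rose and 23.3% fell. Without the trend 11 were higher and 16 lower, against 17.2% and 14.4% of all genes, and the median was −0.09. Id1 and Id3, inhibitors of myogenic basic helix-loop-helix factors, had the smallest p. Id1 was at 334 ± 25.9 CPM with EET and 175 ± 12 CPM in controls (log2 fold change 0.94 ± 0.08, adjusted p = 1.05e-06; 0.24 with the trend removed). Id3 was at 448 ± 21.1 CPM with EET and 251 ± 23.8 CPM in controls (0.83 ± 0.08, adjusted p = 1.73e-06; 0.22 with the trend removed). Both stayed called with the trend removed (adjusted p = 0.000263 and 0.00133).

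The route from RAS through ERK to SRF, which induces the EGR genes, also moved both ways. Of 26 tested genes 4 rose and 10 fell, against 24.6% and 23.3% of all genes, with a median of −0.06. Without the trend 9 were higher and 4 lower, against 17.2% and 14.4% of all genes, at a median of 0.0047. Hras, one of the RAS switches, was at 78.7 ± 10.2 CPM with EET and 38.6 ± 3.59 CPM in controls and rose by 1.03 (SE 0.10, adjusted p = 2.57e-06). Dusp4, a nuclear phosphatase that is induced by ERK and inactivates it, was at 49.6 ± 4.27 CPM with EET and 85.9 ± 3.38 CPM in controls and fell by 0.79 (SE 0.08, adjusted p = 3.25e-06). Both kept their size with the trend removed (0.99 and −0.86), at annotated lengths of 2828 and 2740 bp. These values too depend on the longest annotated transcript, which need not be the main one in these cells.

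**Figure D4:**
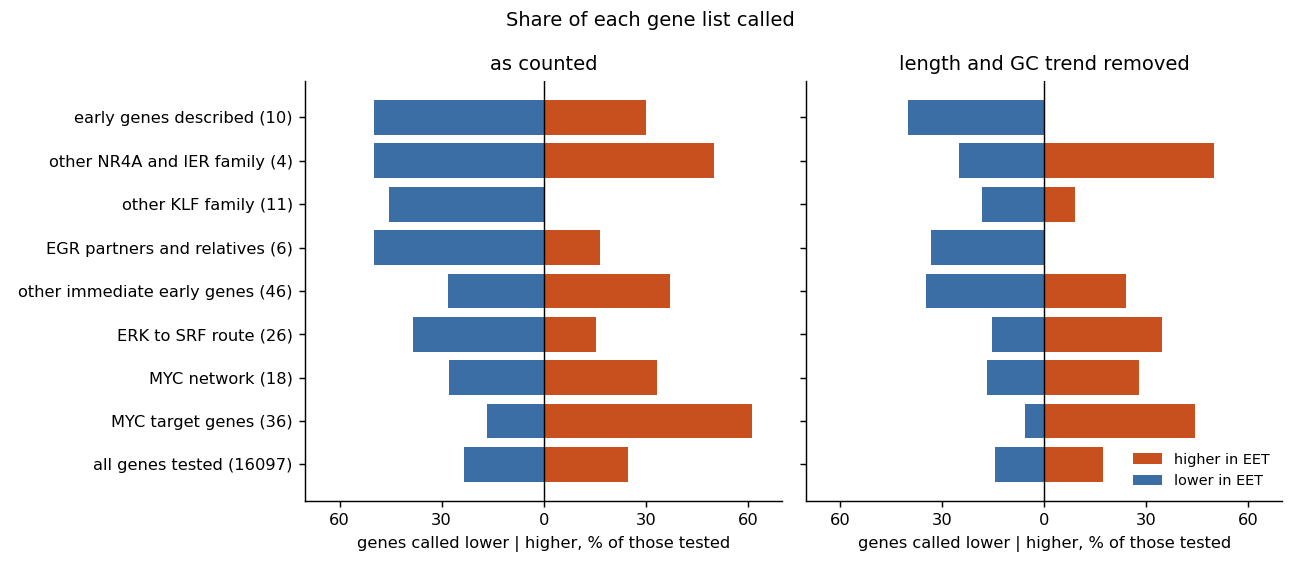
Percentage of the tested genes of each list (number tested in parentheses) called higher in EET (orange, right) or lower in EET (blue, left), as counted (left panel) and with the mRNA length and GC trend removed (right panel). The 10 early genes go from 3 higher and 5 lower to 0 higher and 4 lower, and MYC target genes keep the longest bar on the higher side among lists of over 10 genes in both panels.

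Members of a family were compared by their ratio in 5 pairs. The log2 ratio of Klf4 to Klf2 counts within a library does not depend on the scaling, and was −1.58 ± 0.34 with EET and −0.69 ± 0.09 in controls (mean ± SD, n = 3 each). The difference was −0.88 (exact two-sided permutation p = 0.1, the smallest that 3 against 3 libraries can give; adjusted p = 0.167 over 5 pairs). It was −0.47 with the trend removed, and in both analyses the groups did not overlap. The ratio of Ier3 to Ier2 was 0.64 ± 0.12 with EET and 0.93 ± 0.08 in controls, a difference of −0.29 without overlap (exact permutation p = 0.1, adjusted p = 0.167), or −0.47 with the trend removed. For Klf6 to Klf2 the difference was −0.66 (exact permutation p = 0.1, adjusted p = 0.167), with 2.14 ± 0.22 with EET and 2.79 ± 0.11 in controls. That difference shrank to −0.05 with the trend removed, where the groups overlapped (exact permutation p = 0.6). Egr2 to Egr1 had a ratio of −4.11 ± 0.21 with EET and −3.80 ± 0.12 in controls, and Egr3 to Egr1 one of −3.40 ± 0.05 with EET and −3.28 ± 0.13 in controls. Both overlapped as counted (differences −0.31 and −0.12, exact permutation p = 0.2 and 0.3) and neither overlapped with the trend removed (−0.57 and −0.19, exact permutation p = 0.1 each, the smallest possible). None of the 5 differences could pass a threshold of 0.05 in a design of this size.

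Libraries of a group differed from each other. Over all genes the chi-square per gene was 24.1 and 16.7 for EET replicate 3 against EET replicates 1 and 2, which differed by 7.3, and 18.3 and 15.2 for control replicate 1 against control replicates 2 and 3, which differed by 5.97. Egr2 lay 0.28 log2 units below its group mean in EET replicate 1 and 0.25 above it in EET replicate 2. In EET replicate 2, 8 of the 10 genes lay above the mean of their group and by 0.07 log2 units on average, and in control replicate 2, 7 of 10 did so by 0.03. The other EET and control libraries had 3 to 5 genes above their group mean. With each library left out in turn, the log2 fold changes of Egr2 and Klf4 ran from −0.70 to −0.43 and from −0.59 to −0.42.

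Genes with the most similar profile over the 6 libraries were sought for the 3 early genes with the highest level per kilobase averaged over all 6 libraries, by the root mean square difference of log2 CPM centred on the mean of the libraries, among 12225 genes. For Myc these were Pnrc1 (0.017 log2 units) and Klc2 (0.017), for Ier3 they were Ltv1 (0.015) and Bzw2 (0.017), and for Ier2 the nearest was Des, the muscle intermediate filament gene (0.011). Des was at 864 ± 82.5 CPM with EET and 594 ± 56.5 CPM in controls. Des, with an mRNA of 3028 bp, was called higher as counted (log2 fold change 0.54, adjusted p = 9.54e-05) and with the trend removed (0.55, adjusted p = 0.00011).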

How the data were processed

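Per the labels' protocols, mRNA was captured on its poly(A) tail, fragmented and turned into paired-end libraries in which dUTP marks the second strand. The authors deposited 1 table of raw counts, whole numbers by gene symbol and library. Per the submitters' processing notes FastQC, cutadapt, DESeq2 and GRCm38 were used; the sources used here name no aligner, counting tool or strand setting. Of 55494 rows 25226 had no count in any library. The members and gene lists were chosen with earlier results of these data known.

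Testing used edgeR 4.0.16 under R 4.3.3 (filterByExpr, TMM, robust glmQLFit, glmQLFTest; EET over control, no block) after a check on simulated counts. Benjamini-Hochberg adjusted p-values cover all 16097 genes tested, and the threshold was 0.05. A ± beside a log2 fold change is the fit's standard error. Annotation and mRNA length (longest protein-coding transcript) were read from GENCODE M21 (GRCm38), where 53292 symbols matched. For the trend, the log2 level in a library minus the 6-library mean was smoothed over log2 length and GC by robust loess (span 0.3) using protein-coding genes, centred on the median gene and entered as an offset. Ratios used counts plus 0.5. Named genes were all members, the 2 genes with the smallest p in each of 7 related lists, and the 2 genes nearest in profile to each of 3 members; exceptions are marked, and 1 of these genes is not reported here. Alternatives tried were scaling by RLE or by library totals, no filter on low counts, a filter of over 5 CPM in 3 libraries, DESeq2 1.42.0, a replicate block, leaving out each library, removal of the trend and counts divided by 2. Added after the data were seen were removal of the trend with the TMM scale kept, and with the replicate block.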

Additional observations from a re-analysis of the deposited data

How the results depend on the processing

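Egr2 and Klf4 were called lower in all 16 alternatives. The trend fitted for both was near 0, so the 3 alternatives that remove it could change their values little. Ier2 and Klf2 were called higher, and Egr1 and Klf6 lower, in the 13 alternatives that leave the length trend in place and in 0 of the 3 that remove it. Removing the mRNA length and GC trend left 0 members and 2776 genes called higher and 2326 genes lower. With the TMM scale kept 0 members and 3780 genes were higher, and 3 members (Egr2, Klf4 and Ier3) and 1548 genes lower, so the split of calls depends on the centring. With the replicate block added to trend removal 0 members were higher and 2422 genes lower, and Nr4a1 was called lower (−0.25, adjusted p = 0.0247). The replicate block alone gave 4238 genes higher and 4083 lower and changed no member's call. Same-numbered libraries did not deviate together (correlations −0.05 to 0.009), so the numbers were not taken to pair samples. Leaving out each library gave 3291 to 4121 genes higher and 3029 to 3934 lower, with 2 to 3 members higher and 4 to 5 lower. Ratio differences then ran from −0.42 to −0.21 (Egr2 to Egr1), −0.18 to −0.06 (Egr3 to Egr1), −1.08 to −0.76 (Klf4 to Klf2), −0.78 to −0.58 (Klf6 to Klf2) and −0.35 to −0.24 (Ier3 to Ier2).

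Directions turned as follows with the trend removed, with the TMM scale kept and with the added block, in that order where all 3 are given: Ier3 −0.469, −0.396 and −0.472, Myc −0.128, −0.0545 and −0.128, Klf13 0.0518, 0.125 and 0.0523, and Pnrc1 −0.39, −0.32 and −0.39. Ier2 was at −0.00042 with the trend removed, Klf2 at −0.0037 and Bzw2 at −0.0702, and with the added block Klf2 was at −0.0068 and Bzw2 at −0.0699. With the TMM scale kept Egr1 was at 0.0705 and Klf6 at 0.0188. Library totals turned Myc (−0.031), Pnrc1 (−0.0463) and Klc2 (−0.0512), none of them called. Leaving out 1 library each, Pnrc1 ran from −0.00086 to 0.0548 and Klc2 from −0.0128 to 0.0543. Whether the length trend arose in the cells or in library preparation was not tested.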
